A study of Mus musculus with 78 samples.

Results

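The regions described here were 554 of the 3189 ZFP143 peaks of mouse embryonic stem cells (mESCs), those that lay between or on the promoters of neighbouring genes. A peak was taken if it did not overlap a CTCF peak and if its centre lay within 2000 bp of a transcript start of at least 2 protein-coding or long non-coding genes in a GENCODE annotation of GRCm38/mm10. Of the other peaks, 221 overlapped a CTCF peak, 1339 lay at the promoter of a single gene and 1075 lay away from such starts. The 554 peaks held 1122 different genes, 886 protein-coding and 236 long non-coding. The rule uses no expression value, but it was set with earlier results of these data known.

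All libraries came from E14TG2a mESCs (129/Ola) in which the endogenous ZFP143 carried a C-terminal FKBP degron with HA and GFP, obtained by knock-in and picking of clones. Every group, controls included, therefore carried the tag. The degrader dTAG-V1 at 500 nM was compared with DMSO, with 2 replicate libraries per group. Transient transcriptome sequencing (TT-seq), which isolates RNA labelled with 2 mM 4-thiouridine for 10 min and so reads nascent transcription, compared DMSO with 2 h, 6 h and 24 h of depletion. RNA-seq was done in DMSO and after 24, 48 and 72 h of depletion. A separate RNA-seq experiment had cells in DMSO or dTAG-V1 for 24 h, before retinoic acid (RA), and cells that then received RA for 24 h in the same condition. The RA groups had been treated for 48 h in all, and no library had the differentiation medium without RA. The peaks came from 1 list of HA ChIP-seq without replicates, so binding itself carries no replicate error.

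ZFP143, the mouse ZNF143, is a zinc finger activator that binds close to the starts of many broadly expressed genes through a long site. Its canonical site holds a core around the letters CCCANNATG and, in the longer variant, the letters ACTACANNT directly before that core. Neighbouring genes transcribed away from a common stretch of DNA are common in mammals, and such bidirectional promoters often serve housekeeping genes, for example of mitochondria, translation and DNA repair. The peaks were used to ask whether both genes of a shared promoter respond when the factor is removed.

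At 528 of the 554 peaks 2 genes shared the peak, at 23 peaks 3 genes did, at 2 peaks 4 genes and at 1 peak 5 genes. For each peak the nearest start on either strand made a pair, with protein-coding genes taken before long non-coding ones. In 405 pairs the genes were divergent, in 110 they lay head to head with overlapping starts, and in 39 they were on the same strand. Both genes were protein-coding at 335 peaks, 213 peaks held a protein-coding and a long non-coding gene, and 6 held only non-coding genes. The starts of a pair lay a median of 200 bp apart, and at 345 peaks they were no more than 300 bp apart. The nearer start lay a median of 41.5 bp from the peak centre and the farther start a median of 213 bp. Because 7 pairs had a pair of peaks, the 554 peaks gave 547 different pairs, and in 241 of these the gene bodies overlapped. The peaks lay on 20 chromosomes.

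The shared peaks had a median fold enrichment over input of 36.9 (range 4.35 to 345), compared with 31.7 at single-gene promoters and 10.2 away from promoters. Their median length was 510 bp against 474 bp at single-gene promoters. Within the 300 bases around the centre, on either strand, the core word CCCANNATG was present in 23.5% of shared peaks and the upstream word ACTACANNT in 39%. Single-gene promoter peaks held them in 24.6% and 37.6%, and 5311 equally long stretches between neighbouring starts without a ZFP143 peak in 4.1% and 1.85%. Either word was found at 296 of the 554 shared peaks (53.4%), both at 50 (9.03%), and on one strand the words cannot share letters. The median GC content was 61% at shared peaks and 56% between neighbouring starts without a peak. A word match is a description of these letters, not proof of a site.

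The stretches that follow are from the plus strand of GRCm38/mm10, with the word in capitals. A word read on the minus strand appears as its reverse complement. They show first 3 promoters whose genes both fell after 2 h, then 1 at which the genes moved in opposite directions, and 2 at which a gene rose.
Plagl2 and Pofut1, chr2:153241361-153241545, core word on the minus strand: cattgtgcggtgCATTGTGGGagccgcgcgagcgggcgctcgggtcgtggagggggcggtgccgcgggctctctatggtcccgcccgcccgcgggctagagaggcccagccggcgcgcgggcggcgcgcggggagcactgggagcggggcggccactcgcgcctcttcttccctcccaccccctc
Uqcr10 and Zmat5, chr11:4704364-4704602, upstream word on both strands: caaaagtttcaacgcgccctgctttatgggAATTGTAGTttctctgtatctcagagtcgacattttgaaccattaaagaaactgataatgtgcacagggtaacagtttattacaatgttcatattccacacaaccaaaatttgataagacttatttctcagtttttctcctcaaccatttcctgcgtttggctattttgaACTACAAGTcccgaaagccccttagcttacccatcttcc
Acad8 and Thyn1, chr9:26999554-26999722, upstream word on both strands: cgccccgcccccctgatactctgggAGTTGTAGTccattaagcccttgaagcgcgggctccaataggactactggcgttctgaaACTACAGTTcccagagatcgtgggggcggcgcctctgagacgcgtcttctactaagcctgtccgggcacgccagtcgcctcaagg
2500004C02Rik and Asxl1, chr2:153345743-153345841, upstream word on the plus strand: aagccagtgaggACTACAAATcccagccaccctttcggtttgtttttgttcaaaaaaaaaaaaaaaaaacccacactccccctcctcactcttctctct
Gtf2e1 and Rabl3, chr16:37540062-37540130, upstream word on the plus strand: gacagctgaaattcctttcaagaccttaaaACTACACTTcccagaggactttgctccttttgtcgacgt
Hsp90b1 and Ttc41, chr10:86705995-86706108, upstream word on both strands: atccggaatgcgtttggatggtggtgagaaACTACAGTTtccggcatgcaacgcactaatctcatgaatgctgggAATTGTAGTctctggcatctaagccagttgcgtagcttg
In each line the gene named first is transcribed from the minus strand and the second from the plus strand. Positions are given in bp from the start, negative upstream. At 2500004C02Rik and Asxl1 the word lay at -70 bp from the start of Asxl1, which fell, and at 51 bp from that of 2500004C02Rik, which rose. At the last 2 promoters the words lay downstream of the start of the gene that rose, by 191 bp for Rabl3 and by 185 and 230 bp for Ttc41.

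The TT-seq libraries held 9721568 to 16532077 counts, those of the RNA-seq time course 10261851 to 15316700 and those of the RA experiment 13890761 to 27089033. The biological coefficient of variation was 17.2% for TT-seq and lower for RNA-seq, with 3.65% over the time course and 5.92% for the RA libraries, so the RNA-seq tests were more precise. Zfp143 mRNA, which the degron does not target, was at 70.9 and 73.7 CPM, counts scaled to the library size, in DMSO and at 158 and 165 CPM after 2 h in TT-seq, a log2 fold change of 1.17 ± 0.11 (SE), and so cannot show the loss of the protein. The summed level of 8 stem cell markers was 2771 to 3127 CPM over the TT-seq libraries, and in RNA-seq it went from 5487 and 5746 CPM in DMSO to 3605 and 3651 CPM at 72 h. Its members moved in both directions. Klf4 went from 170 and 175 to 217 and 221 CPM and Esrrb from 872 and 875 to 954 and 945 CPM. The other markers were lower at 72 h, among them Dppa5a, from 1023 and 1126 to 343 and 352 CPM. The summed level of 10 markers of other cell types was 12.3 to 27.9 CPM in TT-seq and 15.7 to 43.8 CPM over the RNA-seq time course, against 116 to 131 CPM after RA. In bulk samples fewer cells of a type and less RNA per cell cannot be told apart. The part of this shift in the late RNA-seq results was not tested.

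Of the 1122 genes at shared peaks 1109 were in the count tables, and 997 of them passed the filter on low counts in TT-seq. After 2 h of depletion, 131 of the 997 genes (13.1%) were downregulated and 18 (1.81%) upregulated, against 2.43% and 0.168% of all 17870 genes tested. A gene counted as down- or upregulated in TT-seq with an adjusted p under 0.05 in the quasi-likelihood test of edgeR and a log2 fold change beyond 0.5 in size. The median log2 fold change of the shared promoter genes was -0.26, that of all genes tested was 0.01, and 72.2% of the shared promoter genes were below 0. Of the genes at single-gene promoter peaks, 234 of 1199 (19.5%) were downregulated and 6 upregulated, with a median of -0.28. The difference between these groups of genes was not tested. Genes counted as having no ZFP143 peak within 2000 bp were downregulated in 47 and upregulated in 6 of 15507 cases. This group took genes of any type, but only starts of protein-coding and long non-coding genes were compared with the peaks. Shared promoter genes made up 5.58% of the genes tested, 30.1% of those downregulated and 60% (18 of 30) of those upregulated at 2 h.

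After 6 h, 150 of the 997 genes (15%) were downregulated and 16 upregulated, against 2.83% and 0.397% of all genes. After 24 h, 177 (17.8%) were downregulated and 19 upregulated, against 4.09% and 2.02% of all genes. The upregulated genes at shared promoters thus numbered 18, 16 and 19 at the 3 times, while those among all genes numbered 30, 71 and 361, and the shared promoter genes were 5.26% of the upregulated genes at 24 h. The 3 times share the DMSO libraries.

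TT-seq libraries with the same replicate number deviated together. With the replicate number as a block in the fit, 20.7% of the shared promoter genes were downregulated at 2 h, 23.6% at 6 h and 26.6% at 24 h, beside 3.7%, 5.35% and 6.79% of all genes. With the block 31, 31 and 37 were upregulated at these times, beside 0.487%, 2.01% and 5.65% of all genes, or 87, 359 and 1009 genes. The 56 calls of named genes at 2 h were also made with the block, and 16 named genes were called with it alone. TT-seq values that follow are without the block unless it is named.

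The TT-seq counts depended on single libraries. Without DMSO replicate 1 or 2, or without the first or second 2 h library, 89, 58, 32 and 35 shared promoter genes were downregulated, and 8, 5, 5 and 6 were upregulated. The share among all genes fell with them, to 1.63%, 1.05%, 0.571% and 0.588% for downregulation. At 6 h, 93 and 66 were downregulated without a DMSO library and 30 and 43 without a 6 h library, and 5 to 8 were upregulated. The downregulated share of all genes was then 1.73%, 1.39%, 0.61% and 0.772%, and 41, 28, 9 and 8 of all genes were upregulated. At 24 h, 114 and 114 were downregulated without a DMSO library and 107 and 92 without a 24 h library, and 10 to 12 were upregulated, beside 2.24%, 2.66%, 2.13% and 1.9% of all genes downregulated and 106, 166, 148 and 128 upregulated. Among all genes 35 and 12 were upregulated at 2 h without a DMSO library and 11 and 10 without a 2 h library, of which 8, 5, 5 and 6 were shared promoter genes. Of 56 calls of named genes at 2 h, 16 held in each of the 4 fits without a library.

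In RNA-seq, where a gene was called with an adjusted p under 0.01 for a change beyond 1.5-fold (glmTreat of edgeR), 832 of the shared promoter genes passed the filter. At 24 h, 121 of them (14.5%) were downregulated and 22 (2.64%) upregulated, against 3.41% and 2.32% of all 13925 genes. At 48 h, 163 (19.6%) were downregulated and 47 (5.65%) upregulated, against 7.71% and 10.5% of all genes. At 72 h, 182 (21.9%) were downregulated and 55 (6.61%) upregulated, against 12% and 13.7%. Without 1 of the 24 h or DMSO libraries the share at 24 h was 12.9% to 14.5%.

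In the RA experiment 876 shared promoter genes were tested. Before RA, at 24 h of depletion, 141 (16.1%) were downregulated and 24 (2.74%) upregulated, against 3.66% and 2.74% of all 15915 genes. With RA, at 48 h of depletion, 128 (14.6%) were downregulated and 42 (4.79%) upregulated, against 7.36% and 9.1%. In each RNA-seq contrast the share of upregulated genes at shared promoters was at or close to the share among all genes, or below it.

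**Figure D1:**
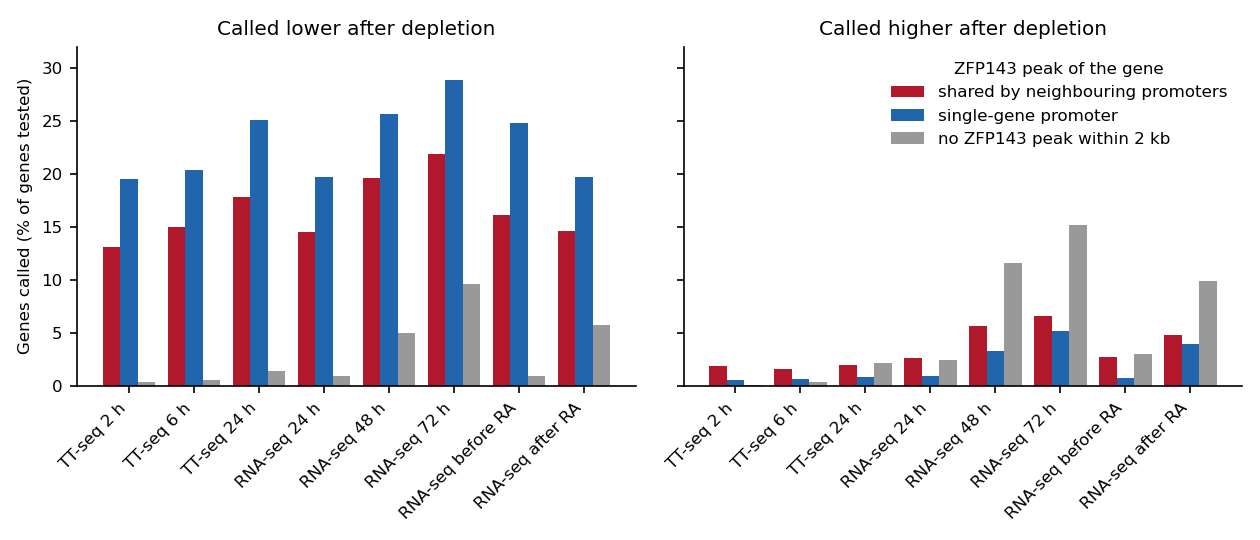
Percent of tested genes called lower and higher in each of the 8 comparisons with DMSO, for genes at shared peaks (red), genes at single-gene promoter peaks (blue) and genes counted as without a ZFP143 peak within 2 kb (grey), 1 bar per group. The grey group took genes of any type, but only starts of protein-coding and long non-coding genes were compared with the peaks. For decreases the red bars, from 13.1% at 2 h of TT-seq to 21.9% at 72 h of RNA-seq, stand between the blue and the grey ones in each comparison, and for increases the grey bars are the highest from 48 h of RNA-seq on (11.6% at 48 h).

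The filter, which asked for more than 10 counts in 4 of the 8 libraries of a table, left out 277 shared promoter genes in the RNA-seq time course, 227 of which were at or under 10 counts in every library. It also left out 10 genes that were above 10 counts in both DMSO libraries and at or under 10 in all 6 depleted libraries. These genes entered only the fit without a count filter and, being picked by that difference, are described by their counts. The gene with the most counts among them was Mmachc, which encodes an enzyme of cobalamin processing, with 509 and 748 counts in DMSO and 0 to 7 in the 6 depleted libraries. Acadvl, which encodes the very long chain acyl-CoA dehydrogenase of mitochondria and was chosen after its values were seen, had 289 and 371 counts in DMSO and 0 to 1 in the depleted libraries. In TT-seq 4 such genes were left out and in the RA experiment 3. These genes are in none of the counts of downregulated genes given above for that table.

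In 435 different pairs both genes were tested in TT-seq. After 2 h, 89 pairs (20.5%) had at least 1 downregulated gene, and in 10 of these both genes were downregulated. Among all neighbouring pairs 4.69% had at least 1, and among those without a peak 0.29%. The 10 pairs were 2.3% of the shared pairs, against 0.556% (18 of 3239) of all pairs of neighbouring starts within 4000 bp and 1 of 2417 such pairs without a ZFP143 peak. Among pairs with at least 1 downregulated gene, both were down in 11.2% of shared pairs and 11.8% of all neighbouring pairs. Without a peak this held for 1 of 7 such pairs. With the replicate block both genes were down in 21 pairs (4.83%), against 1.02% of all neighbouring pairs, and at least 1 gene in 31.3%, against 7.56%, and 7 pairs were called in opposite directions, against 0.247% (8). Without it, in 78 pairs only 1 gene passed the test for a decrease, in 1 pair a gene was downregulated and its neighbour upregulated, and in 15 pairs a gene was upregulated alone. Among all neighbouring pairs these numbered 1 (0.0309%) and 17 (0.525%), shared pairs included. The remaining 331 pairs had no call. The median log2 fold change of the more lowered gene of a pair was -0.42, and that of the other gene was -0.03. Taking the lower of both values sets them apart by construction, and the medians were -0.15 and 0.09 in pairs without a peak and -0.20 and 0.07 in all neighbouring pairs. A missing call does not show that the neighbour was unaffected.

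At 6 h both genes were downregulated in 13 pairs and 1 gene in 88, and at 24 h in 17 and 103. Pairs with both genes down were 2.99% at 6 h and 3.91% at 24 h, beside 0.648% and 1.3% of all 3239 neighbouring pairs. At least 1 gene was down in 23.7% and 28.7%, beside 6.3% and 8.8%. Of such pairs, both genes were down in 12.6% at 6 h and 13.6% at 24 h, beside 10.3% and 14.7%. With the replicate block both genes were down in 6.44% of pairs at 6 h and 8.28% at 24 h, beside 1.85% and 2.66%. Pairs with a gene down and a gene up numbered 2 and 5 at these times, beside 0.0926% (3) and 0.185% (6) of all neighbouring pairs. Without DMSO replicate 1 or 2 or without the first or second 2 h library, both genes were downregulated at 2 h in 1.15%, 0.92%, 0% and 0.23% of pairs. With 301 pairs tested in RNA-seq, at 24 h both genes were downregulated in 10 (3.32%), against 0.7% of 1856 neighbouring pairs, and 1 gene in 49. At least 1 gene was down in 20.3% of the pairs at 24 h and in 33.6% at 72 h, beside 6.63% and 20.7% of all neighbouring pairs. Of such pairs, both genes were down in 16.4% at 24 h and 14.9% at 72 h, beside 10.6% and 14.8%. At 72 h both were downregulated in 15 pairs, 1 in 81, and in 5 pairs (1.66%) the genes were called in opposite directions, near the 1.29% of all neighbouring pairs. Those 15 pairs were 4.98% of 301, beside 3.07% of all 1856 neighbouring pairs and 2.13% of 1312 without a peak. Across the pairs whose gene bodies do not overlap, the changes of both genes had a Pearson r of 0.12 in TT-seq at 2 h (246 pairs) and 0.35 in RNA-seq at 24 h (193 pairs). Neighbouring pairs without a peak had an r of 0.22 (1196 pairs) and 0.24 (781 pairs), respectively, and all neighbouring pairs had 0.18 (1651 pairs) and 0.23 (1130 pairs). Both genes of a pair come from the same libraries and the same peak, so these values are descriptions.

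The difference between the changes of the partners was tested directly with limma, with an adjusted p under 0.05 and a difference beyond 0.5 on the log2 scale. At 2 h of TT-seq the partners differed in 61 of 435 pairs (14%), against 2.75% of all neighbouring pairs and 0.207% of those without a ZFP143 peak. With the replicate block they differed in 103 pairs (23.7%), against 5.96% and 1.28%. Without DMSO replicate 1 or 2 or without the first or second 2 h library, the share was 7.36%, 4.37%, 3.68% and 4.83%. Of the 61 pairs, 38 had 1 downregulated gene, 12 had 1 upregulated gene, 1 had both kinds, 10 had no call, and in none were both genes downregulated. By RNA-seq at 24 h they differed in 120 of 301 pairs (39.9%), against 24.8% of all neighbouring pairs and 18.2% of those without a peak. The RNA-seq test of a difference was thus often passed by neighbours without a ZFP143 peak.

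**Figure D2:**
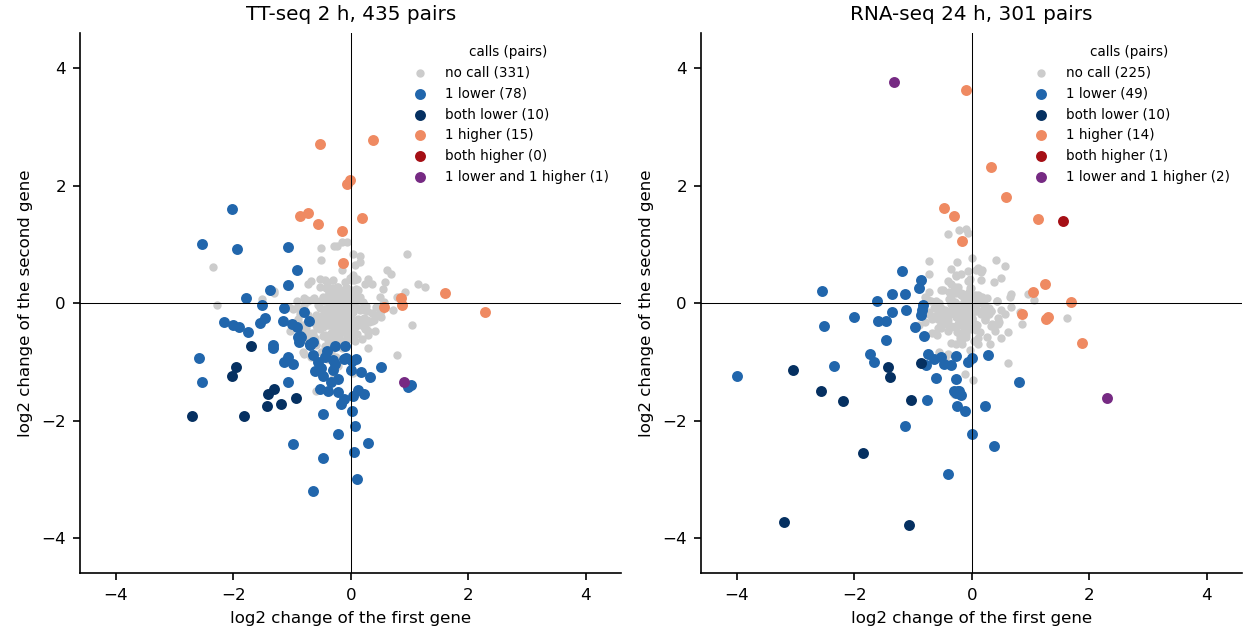
Log2 fold change of the first gene (horizontal; the gene on the minus strand in pairs on opposite strands) and of the second gene (vertical), 1 point per pair, at 2 h of TT-seq (left) and 24 h of RNA-seq (right), coloured by the calls of both genes. In TT-seq 78 pairs with 1 downregulated gene spread along either axis and 10 pairs with both lie in the lower left.

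Plagl2, a zinc finger transcription factor gene, and Pofut1, which encodes the O-fucosyltransferase of Notch receptors, had starts 107 bp apart and gene bodies that do not overlap. Plagl2 was at 48.5 and 50.6 CPM in DMSO and at 18.6 and 21.4 CPM after 2 h of TT-seq, a log2 fold change of -1.31 ± 0.14 (SE, edgeR adjusted p = 0.00243). Pofut1 went from 33.8 and 33.1 CPM to 11.4 and 12.8 CPM, by -1.47 ± 0.18 (edgeR adjusted p = 0.00397). The depleted libraries of both genes lay below both DMSO libraries, and both genes were downregulated in 3 of the 4 fits without a library. Both were downregulated in RNA-seq at 24 h, at -1.39 ± 0.09 for Plagl2 and -1.26 ± 0.09 for Pofut1. After RA, Pofut1 was still called lower (-0.95 ± 0.10) and Plagl2 was not (-0.89 ± 0.12, glmTreat adjusted p = 0.0151).

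Uqcr10, a subunit of respiratory complex III, and Zmat5, a protein of the minor spliceosome, shared a peak with a fold enrichment of 102. Uqcr10 was at 41.7 and 38.2 CPM in DMSO, 10.6 and 12 CPM after 2 h, 8.5 and 7.6 CPM after 6 h, and 4.13 and 3.34 CPM after 24 h of TT-seq. Zmat5 was at 59.8 and 52.8 CPM in DMSO, 14.9 and 14.7 CPM after 2 h, and 7.87 and 4.25 CPM after 24 h. Not every fit without a library kept both calls at 2 h. Both genes were lowest at 24 h, with log2 fold changes of -3.42 ± 0.21 and -3.23 ± 0.26. RNA-seq at 24 h gave -3.20 ± 0.08 for Uqcr10 and -3.73 ± 0.17 for Zmat5, both downregulated, and the partners did not pass the test of a difference (0.46 ± 0.24, limma adjusted p = 0.125). Both stayed downregulated after RA, Uqcr10 at -2.51 ± 0.09 and Zmat5 at -1.66 ± 0.14.

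Acad8, which encodes a mitochondrial dehydrogenase of valine breakdown, was at 32.6 and 29.9 CPM in DMSO and 8.53 and 7.59 CPM after 2 h, a log2 fold change of -1.96 ± 0.23. Its neighbour Thyn1 was at 23.7 and 23.9 CPM in DMSO and 10 and 12.2 CPM after 2 h, -1.09 ± 0.18 (edgeR adjusted p = 0.0167), and this call was lost in all 4 fits without a library. Acad8 and Thyn1 were both downregulated in RNA-seq at 24 h, at -1.43 ± 0.11 and -1.09 ± 0.09, also in each fit without a library. Htra2, a mitochondrial serine protease gene, and Aup1, a gene of protein quality control at the endoplasmic reticulum, had starts 75 bp apart under a peak with a fold enrichment of 153. Htra2 was at 6.1 and 7.01 CPM in DMSO and 2.87 and 2.11 CPM after 2 h, -1.41 ± 0.30, a call that no fit without a library kept. Aup1 was at 15.7 and 15.8 CPM and then 5.9 and 5 CPM, -1.54 ± 0.21. Htra2 was at -2.19 ± 0.12 and Aup1 at -1.67 ± 0.09 in RNA-seq at 24 h, both downregulated, and their difference passed (-0.50 ± 0.16, limma adjusted p = 0.0119).

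Pomt2, an O-mannosyltransferase gene, and Gstz1, a gene of tyrosine breakdown, have overlapping starts and both passed at 2 h, though no fit without a library kept both calls. Pomt2 went from 30.4 and 34.4 CPM to 5.1 and 4.82 CPM, -2.71 ± 0.21, and Gstz1 from 20.7 and 21.3 CPM to 6.69 and 4.46 CPM, -1.92 ± 0.35. The partners differed in RNA-seq at 24 h, with -3.04 ± 0.15 for Pomt2 and -1.14 ± 0.14 for Gstz1 (limma adjusted p of the difference = 1.17e-09). In 3 of the 10 pairs with both genes down, Adat3 and Scamp4, Gm49345 and Zfp729a, and 3830408C21Rik and Gm48684, the genes lie on the same strand and overlap. Reads in their shared parts were counted for both genes, so their TT-seq calls cannot be told apart. The remaining pairs were Mrpl37 and Cyb5rl, below the mean count of 50 set for naming, and Mrto4 and Emc1.

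Mrto4, a gene of ribosome assembly, and Emc1, a subunit of a membrane protein insertase of the endoplasmic reticulum, shared a peak with Ubr4, a ubiquitin ligase gene. Mrto4 went from 39.8 and 37.7 CPM to 9.64 and 14 CPM at 2 h of TT-seq, -1.70 ± 0.24, and Emc1 from 49.1 and 52.6 CPM to 29.3 and 31.8 CPM, -0.73 ± 0.13, the latter a call that no fit without a library kept. Ubr4 was at 628 and 661 CPM in DMSO and at 684 and 636 CPM after 2 h, 0.03 ± 0.11, with overlapping groups. Of these 3 genes at 1 peak, 2 fell and 1 showed no change beyond the spread. At the peak of Slc39a7, Gm20427 and Rxrb, a retinoid X receptor gene, Rxrb was the downregulated gene at 2 h (23 and 20.7 CPM to 9.16 and 10.3 CPM, -1.16 ± 0.20), and no fit without a library kept the call. Slc39a7 (-0.60 ± 0.20) and Gm20427 (-0.53 ± 0.19) did not pass. None of Gm10643, Rfx1 and C330011M18Rik, at a peak with a fold enrichment of 92.1, was called at 2 h.

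The greatest differences between partners with enough counts included pairs with a single falling gene. Crcp, which encodes a subunit of RNA polymerase III, was at 82.2 and 76.1 CPM in DMSO and at 11.1 and 8.85 CPM after 2 h, -2.99 ± 0.20 (edgeR adjusted p = 0.000313). Its divergent neighbour Asl, a gene of the urea cycle with a start 64 bp away, was at 18.1 and 11.4 CPM and then at 19.2 and 12.6 CPM, 0.11 ± 0.33. The groups of Crcp did not overlap and those of Asl did, and the partners differed by 3.09 ± 0.23 (limma adjusted p = 0.00154). Crcp was also downregulated in RNA-seq at 24 h (-2.44 ± 0.13), and Asl was at 0.38 ± 0.08, not called.

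Sdccag8, a centrosome gene, went from 33.2 and 40.6 CPM to 3.9 and 4.1 CPM, -3.20 ± 0.23, and Cep170, also a centrosome gene, from 49 and 72.7 CPM to 37.5 and 39.9 CPM, -0.65 ± 0.21, called with the replicate block alone (edgeR adjusted p = 0.0427). Both were downregulated in RNA-seq at 24 h, Sdccag8 from 5.05 and 4.63 CPM to 0.242 and 0.456 CPM and Cep170 from 48.9 and 48.2 CPM to 23.3 and 23 CPM (-1.07 ± 0.08).

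Dnajc17, a gene of the spliceosome-associated DNAJ family, was at 31.1 and 29.5 CPM in DMSO and 7.81 and 8.07 CPM after 2 h, -1.93 ± 0.21. Zfyve19, its neighbour, was at 6.1 and 5.64 CPM and then at 11.2 and 11 CPM, 0.92 ± 0.21, which did not pass the test (edgeR adjusted p = 0.0593, and 0.0247 with the replicate block) although the groups did not overlap. The partners differed by -2.82 ± 0.16 (limma adjusted p = 0.00058), and their gene bodies overlap. Mrpl54, a gene of the mitochondrial ribosome, went from 12 and 8.38 CPM to 1.2 and 2.23 CPM, -2.54 ± 0.39, and Apba3, an adaptor protein gene, from 12.3 and 8.08 CPM to 19.5 and 20.9 CPM, 1.00 ± 0.22. Apba3 did not pass at 2 h (edgeR adjusted p = 0.0545, and 0.0214 with the replicate block), was called higher at 24 h (1.03 ± 0.22), and in RNA-seq at 24 h was at 0.20 ± 0.07. At this peak the start of Apba3 used by the rule is an alternative one, 1251 bp from that of Mrpl54. Measured from the peak centre along the genome, the start of Mrpl54 lies at -1248 bp and that of Apba3 at 3 bp.

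**Figure D3:**
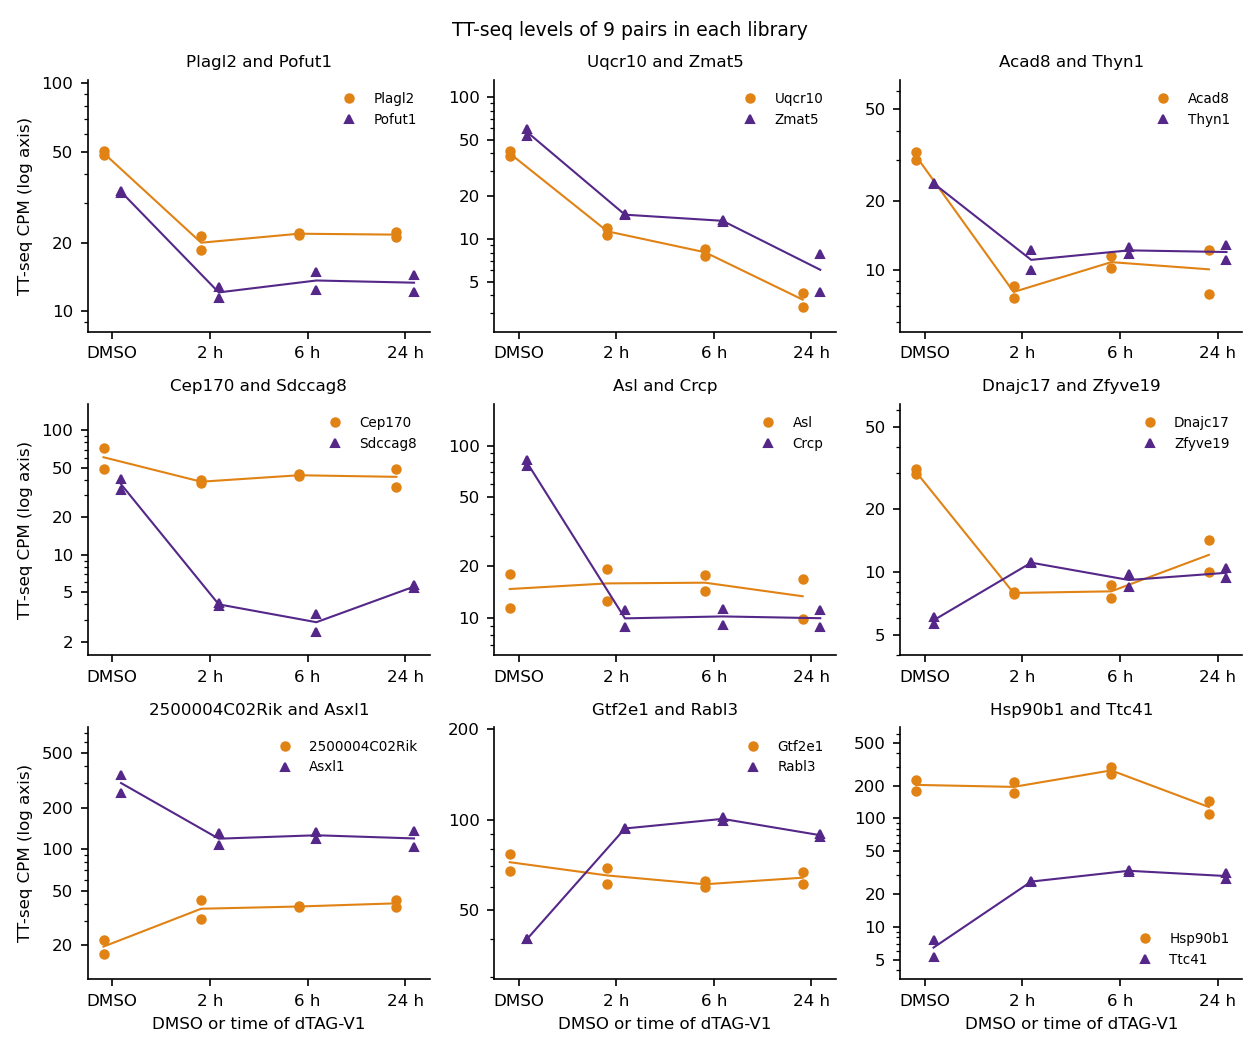
TT-seq levels (CPM, log axis) of both genes of 9 pairs under DMSO and at 2 h, 6 h and 24 h of dTAG-V1, with 1 point per library and lines through the group means. The upper row shows pairs in which both genes fell, from 48.5 and 50.6 CPM to 18.6 and 21.4 CPM for Plagl2, the middle row pairs with 1 falling gene and the lower row pairs with a rising gene.

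In opposite-strand pairs with exactly 1 downregulated gene at 2 h (75 pairs), the lowered gene was the one with the start nearer to the peak centre in 47, the farther one in 26, and in 2 the distances were equal. In 24 of the 75 a protein-coding gene faced a long non-coding one, and the coding gene was the lowered one in 19. The lowered gene had the higher level in DMSO in 54 of the 75, on the CPM scale and so without regard to length. Decreases are more easily called at higher counts, and neither this number nor the 19 of 24 was adjusted for level. The other gene of these pairs, which in 1 case was called higher, was below 0 in 50 and above 0 in 25, with a median of -0.26, the median of all shared promoter genes. By RNA-seq the lowered gene was nearer in 32 of 49 pairs at 24 h, when the neighbour had a median of -0.23, and in 42 of 67 after RA. At 72 h it was nearer in 36 of 80 pairs and farther in 44.

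The strand of the word was compared next. In 180 opposite-strand pairs with words on 1 strand only, the gene transcribed in the direction of the word was downregulated at 2 h in 25 and the gene on the other strand in 17. The RNA-seq numbers at 24 h were 19 and 15 of 131, and after RA 19 and 24 of 148. With words on both strands 13 of 32 pairs (40.6%) had a downregulated gene at 2 h, with words on 1 strand 39 of 180 (21.7%), and without a word 30 of 191 (15.7%). The median fold enrichment of these peaks went along with it, at 74.8, 45.8 and 26.7. The corresponding shares were 24%, 22.9% and 17% in RNA-seq at 24 h, where words on both strands were present in 25 pairs. At 72 h they were 28%, 38.2% and 28.1%, in another order, and after RA 24%, 25% and 22.7%.

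The distance from word to start went along with the change. Of 273 genes whose nearest word lay between 100 bp before and 50 bp after the start, 66 (24.2%) were downregulated at 2 h, with a median of -0.43. Of 260 genes with the nearest word elsewhere, 16 (6.15%) were, with a median of -0.11. At 24 h of RNA-seq the values were 25.1% of 239 genes and 9.09% of 209. For the peak centre, which does not depend on a word, they were 18.8% of 464 genes and 8.38% of 549 by TT-seq, while RNA-seq gave 18.1% and 11.1%. The RNA-seq shares lay closer together later, at 21.2% and 18.1% after 48 h and at 21.7% and 22.2% after 72 h. Genes of a pair share the peak, and a gene at several peaks enters once per peak, so these are descriptions. At the outer limit of the rule, second genes 1500 to 2000 bp from the centre were downregulated in 0 of 22 cases, with a median of -0.04, and those just outside, at 2000 to 2500 bp, in 2 of 21, with a median of -0.15.

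**Figure D4:**
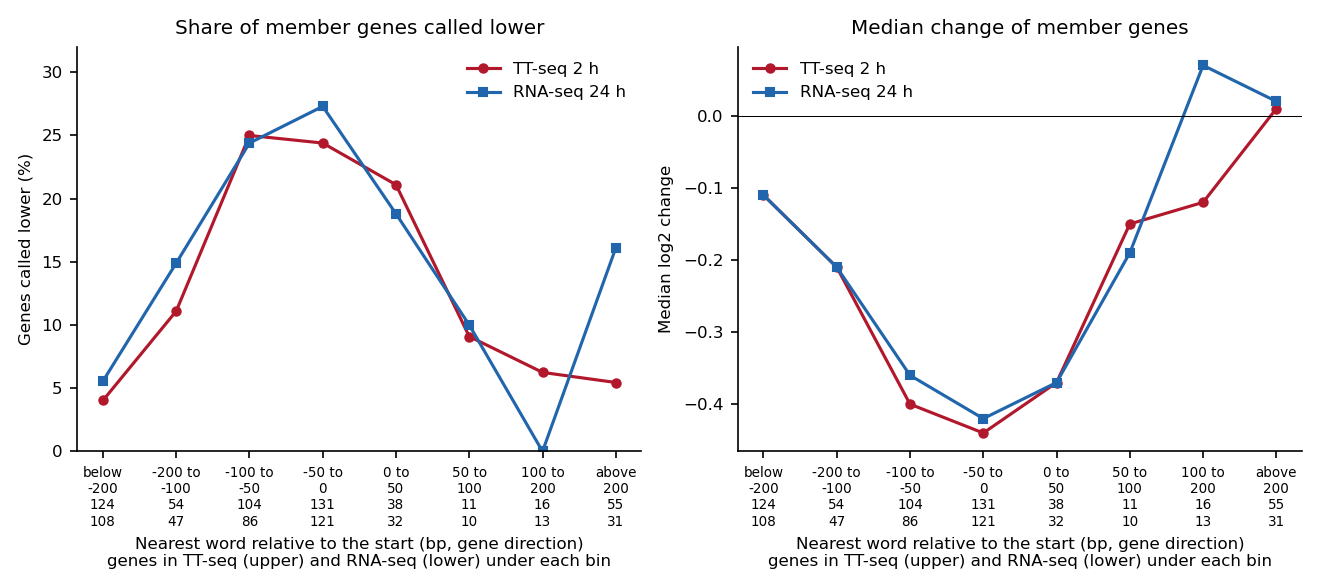
Percent of shared promoter genes called lower (left) and their median log2 fold change (right) by the position of the nearest word relative to the start, upstream negative, at 2 h of TT-seq and 24 h of RNA-seq, with the number of genes under each bin (upper row TT-seq, lower row RNA-seq). The lowest median in TT-seq was -0.44 for words 0 to 50 bp upstream, and medians were near 0 for words more than 200 bp downstream (0.01), while the bins from 50 to 200 bp downstream held 10 to 16 genes each.

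The 18 genes upregulated at 2 h, all named here after their values were seen, were 12 protein-coding genes (Trmt10a, Gpr108, Arsk, Rabl3, Sil1, Ogfod1, Xrra1, Ttc41, Swt1, Lysmd1, Espl1 and Atg4a) and 6 long non-coding ones (2500004C02Rik, Gm13778, D430001F17Rik, 1700034P13Rik, Gm10550 and 5830448L01Rik). Their log2 fold changes ran from 0.57 to 2.78, and 15 were divergent from their neighbour. Of 16 with a tested neighbour, the neighbour was below 0 in 12 and above 0 in 4, with a median of -0.10. A single neighbour, Asxl1, was itself downregulated. The peak centre lay downstream of the start for 10 of the 18 (55.6%), and the nearest word for 7 of the 13 with a word (53.8%), at a median of 29 bp. Among downregulated genes the word lay downstream in 13 of 82 cases (15.9%), at a median position of -41.5 bp, upstream of the start. Without a call it did in 100 of 438 cases (22.8%), at a median of -63 bp. The peak centre lay downstream in 33.8% of downregulated and 30.2% of uncalled cases. Of 5 upregulated genes with a word at single-gene promoters, 1 had it downstream. At shared promoters it lay downstream for 5 of 11 upregulated cases at 24 h of TT-seq and 6 of 25 at 48 h of RNA-seq. With 13 genes and no test, this contrast is a description.

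Trmt10a, a tRNA methyltransferase gene, was at 27.8 and 31.2 CPM in DMSO and at 73.7 and 87.6 CPM after 2 h, 1.45 ± 0.16 (edgeR adjusted p = 0.00254). Its neighbour Mttp, a lipid transfer protein gene, was at 9.41 and 9.07 CPM and then at 11.1 and 10 CPM, 0.19 ± 0.20. By RNA-seq Trmt10a rose by 1.81 ± 0.07 at 24 h, and Mttp was called higher at 72 h (2.11 ± 0.24) and after RA (1.29 ± 0.13). Rabl3, a small GTPase gene, was at 40.2 and 40.2 CPM in DMSO and at 94.1 and 93.1 CPM after 2 h, 1.22 ± 0.11. Its neighbour Gtf2e1, a subunit of the general factor TFIIE, was at 67.7 and 76.9 CPM and then at 61.4 and 69.2 CPM, -0.15 ± 0.13, with overlapping groups. The partners differed by -1.36 ± 0.10 (limma adjusted p = 0.00154), and in RNA-seq Rabl3 rose by 1.62 ± 0.07 at 24 h and by 1.52 ± 0.09 after RA.

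Ttc41, a tetratricopeptide repeat gene, was at 7.65 and 5.26 CPM in DMSO and at 26.5 and 25.9 CPM after 2 h, 2.03 ± 0.20. Hsp90b1, its neighbour and a chaperone gene of the endoplasmic reticulum, was at 180 and 228 CPM and at 172 and 219 CPM, -0.06 ± 0.19. In RNA-seq Ttc41 went from 0.643 and 1.5 CPM to 14.4 and 13.7 CPM at 24 h, 3.63 ± 0.23, and Hsp90b1 was at -0.10 ± 0.05. The non-coding 1700034P13Rik was at 2.28 and 3.81 CPM in DMSO and at 18.9 and 21.6 CPM after 2 h, 2.71 ± 0.26. Vcpip1, its neighbour and a deubiquitinase gene, was at 48.8 and 50.6 CPM and at 36.1 and 33.4 CPM, -0.52 ± 0.13, called at 2 h with the replicate block alone (edgeR adjusted p = 0.0314). By RNA-seq at 24 h Vcpip1 was downregulated (-1.33 ± 0.07) and 1700034P13Rik upregulated (3.77 ± 0.31). The gene bodies of this pair overlap, on opposite strands.

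Asxl1, a Polycomb-associated gene, and 2500004C02Rik were called in opposite directions in each of the 8 comparisons. Asxl1 was at 257 and 346 CPM in DMSO and at 107 and 131 CPM after 2 h, -1.34 ± 0.20, and 2500004C02Rik at 17.2 and 22 CPM and then at 31.2 and 42.6 CPM, 0.91 ± 0.19 (edgeR adjusted p = 0.0467). No fit without a library kept the call of 2500004C02Rik at 2 h, while in RNA-seq at 24 h, at 2.02 and 2.14 CPM and then 7.75 and 13.2 CPM, it was kept in all 4 (2.31 ± 0.24). The starts lie 19 bp apart and the gene bodies overlap. Atg4a, an autophagy protease gene, rose by 1.48 ± 0.24 at 2 h beside Psmd10, a proteasome assembly gene at -0.87 ± 0.27 (not called), and was not called in RNA-seq at 24 h (1.24 ± 0.23). Trmt10a, Rabl3, Ttc41, Gm13778 and 1700034P13Rik were the 5 of the 18 genes upregulated in all 4 fits without a library.

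**Figure D5:**
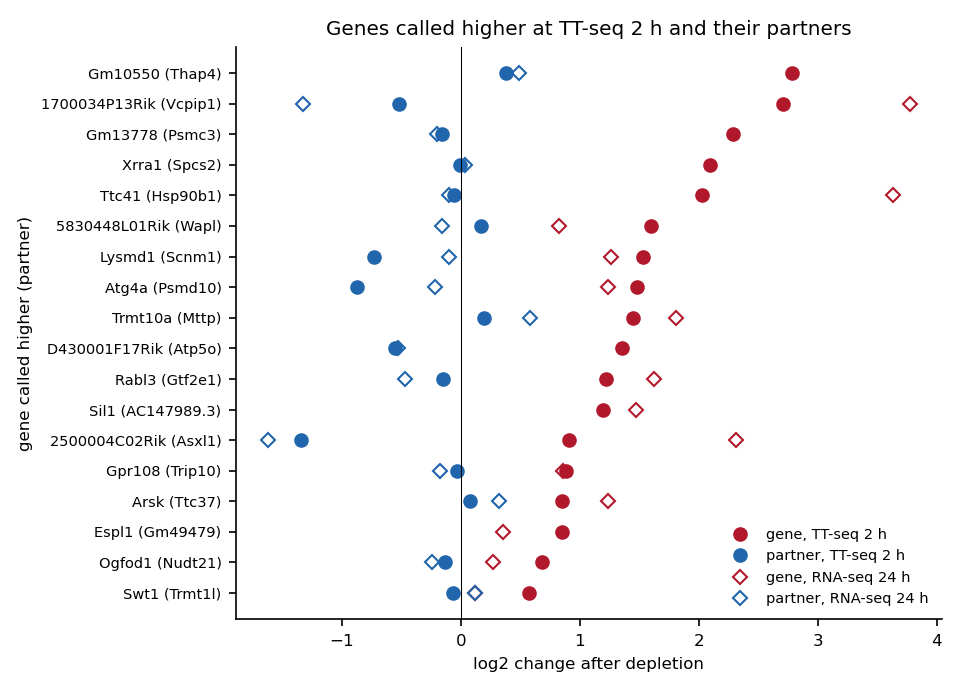
Log2 fold change of the 18 shared promoter genes upregulated at 2 h of TT-seq (red) and of their neighbours (blue, named in brackets), at 2 h of TT-seq (filled circles) and, where tested, 24 h of RNA-seq (open diamonds). At 2 h the upregulated genes lie between 0.57 and 2.78 by their selection, and the 16 tested neighbours have a median of -0.10 and a lowest value of -1.34 (Asxl1).

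In TT-seq, strong peaks had more pairs with a downregulated gene. With the peaks ranked by fold enrichment into 4 equal bins, 41 of 115 pairs (35.7%) in the highest bin had a downregulated gene at 2 h, 20.9% and 16.8% in the middle bins, and 7 of 103 (6.8%) in the lowest. At 24 h of RNA-seq the shares were 31.8%, 20.8%, 14.1% and 11.8%. In the later libraries they were 40%, 40.3%, 28.2% and 23.5% after 72 h and 30.9%, 20.2%, 24.1% and 21.1% after RA. Even so the peak with the highest enrichment, 345, at the non-coding Gm27011 and Banp, had no call. Banp, a chromatin protein gene, was at 312 and 268 CPM in DMSO and at 372 and 357 CPM after 2 h, 0.33 ± 0.12 (edgeR adjusted p = 0.322). Sharpin, a gene of linear ubiquitin chains, and Maf1, a repressor of RNA polymerase III, shared a peak with an enrichment of 199 and had no call in any comparison. At the peak of Map3k12 and Tarbp2 (185), Tarbp2, a cofactor of Dicer, went from 29.2 and 28.3 CPM to 9.56 and 10.7 CPM at 2 h, -1.51 ± 0.19, and was at -0.14 ± 0.08 in RNA-seq at 24 h. At the peak of Cyb5d1 and Naa38 (181), Naa38, a subunit of an N-terminal acetyltransferase, was called in TT-seq at 24 h with the replicate block alone (1.34 ± 0.27) and rose by 1.49 ± 0.07 in RNA-seq at 24 h, from 35.5 and 34.8 CPM in DMSO, with groups that did not overlap.

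The orientations were not tested against each other. A downregulated gene at 2 h was present in 68 of 328 divergent pairs (20.7%), 14 of 75 with overlapping starts (18.7%) and 7 of 32 on the same strand (21.9%). With starts up to 100 bp apart it was present in 32 of 116 pairs (27.6%), with more than 100 and up to 300 bp in 28 of 171 (16.4%) and farther apart in 29 of 148 (19.6%). After 72 h of RNA-seq a downregulated gene was present in 31.5% of 257 divergent pairs, 41.2% of 34 with overlapping starts and 6 of 10 on the same strand, and by distance in 27.7%, 36.1% and 35.4% of pairs. Pairs of coding genes had one in 20.7% at 2 h and in 35% at 72 h of RNA-seq, and pairs of a coding and a non-coding gene in 19.8% and 23.7%. Of the 7 pairs with a pair of peaks, the 3 with the strongest peaks were described. At these, Aamp and Pnkd (enrichments 86.5 and 13.4), Csnk2b and Gpank1 (59.7 and 5.93) and Mir22hg and Tlcd2 (49.3 and 5.35), no gene was called at 2 h, with Aamp, at -0.81 ± 0.18, the nearest to it (edgeR adjusted p = 0.0568, and 0.0119 with the replicate block).

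Mitochondrial genes were among the lowered genes at shared promoters. Of 12 genes of the mitochondrial ribosome 4 were downregulated at 2 h (median -0.49), of 14 genes of oxidative phosphorylation 4 (median -0.37) and of 8 other mitochondrial genes 2 (median -0.45), and none was upregulated. Beside Uqcr10 and Mrpl54, whose start is the one farther from its peak centre, these included Mrps26 (9.41 and 8.15 CPM to 2.87 and 2.77 CPM, -1.63 ± 0.25) and Atp5d, a subunit of the ATP synthase (32 and 26.9 CPM to 12.7 and 14 CPM, -1.14 ± 0.19). Both were also downregulated in RNA-seq at 24 h, Mrps26 at -1.42 ± 0.11 and Atp5d at -1.75 ± 0.06. Cbarp, with a start 1480 bp from that of Atp5d, was at 0.01 ± 0.40 in TT-seq, and the non-coding neighbour of Mrps26 was not tested. Of 56 mitochondrial ribosome genes without a ZFP143 peak, 0 were downregulated at 2 h, with a median of -0.22. The import gene Timm21 was downregulated at 2 h (-1.79 ± 0.35), from 2.38 and 2.9 CPM to 0.797 and 0.723 CPM, with the call lost in each fit without a library.

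Of 35 zinc finger genes at shared promoters 6 were downregulated at 2 h and 8 of 34 in RNA-seq at 24 h, with medians of -0.40 and -0.37. The list was matched by symbol and also took FYVE domain genes such as Zfyve28. Zfp169 went from 31.1 and 30.2 CPM to 4.54 and 5.6 CPM, -2.59 ± 0.24. The mitosis list, also matched by symbol, took Cdc40, a gene of pre-mRNA splicing. Of the 8 genes of this list 3 were downregulated at 2 h, among them Kif20a, a mitotic kinesin gene (84.9 and 78.2 CPM to 51.6 and 51 CPM, -0.67 ± 0.13), and 0 in RNA-seq at 24 h. Of 11 cytosolic ribosome genes 1 was, Rpl15, from 180 and 168 CPM to 70 and 95.9 CPM (-1.07 ± 0.18), and its neighbour Nkiras1 was at 0.31 ± 0.19. Of 11 DNA replication and repair genes 1 was, Rad18, from 78.9 and 96.6 CPM to 34.7 and 32.2 CPM (-1.39 ± 0.16). Of 13 genes of the ubiquitin pathway 1 was, Fbxo46, from 44 and 52.3 CPM to 8.77 and 9.7 CPM (-2.38 ± 0.21).

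None of 12 genes of RNA polymerases and general factors, 9 genes of the splicing factor list, 5 proteasome genes and 3 genes of the chaperonin CCT passed at 2 h, with medians of -0.25, -0.16, -0.16 and -0.48. Among them Cct7 was at -0.51 ± 0.11 and Gtf2f1 at -0.59 ± 0.15. The 1 cytosolic tRNA synthetase gene was at 0.23. The list counts stand beside the 13.1% of all shared promoter genes. With the replicate block Gtf2f1 and Cct7 passed at 2 h (edgeR adjusted p = 0.0326 and 0.0164), as did 11 zinc finger, 6 oxidative phosphorylation, 5 mitochondrial ribosome, 4 mitosis, 3 other mitochondrial, 3 cytosolic ribosome, 3 replication and repair and 2 ubiquitin genes for a decrease and 2 zinc finger genes for an increase, beside 20.7% of all shared promoter genes down.

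Mmachc and its neighbour Ccdc163 had starts 103 bp apart under a peak with an enrichment of 115. Mmachc was at 6.93 and 8.46 CPM in DMSO and at 1.99 and 1.2 CPM after 2 h of TT-seq (-2.28 ± 0.57, edgeR adjusted p = 0.0966, and 0.0188 with the replicate block), and was called lower at 6 and 24 h. Before RA it went from 58 and 56.3 CPM to 0.364 and 0.12 CPM in RNA-seq. Ccdc163 was at 72.7 and 80.1 CPM in DMSO and at 67.7 and 81.5 CPM after 2 h of TT-seq, -0.03 ± 0.16, whereas its RNA-seq level at 24 h went from 11.4 and 10.8 CPM to 1.69 and 1.73 CPM, -2.68 ± 0.23. Prmt6, an arginine methyltransferase gene, went from 16.5 and 16.8 CPM to 5.26 and 3.07 CPM at 2 h, -2.01 ± 0.31. Coa3, an assembly factor of cytochrome c oxidase, was at -1.31 ± 0.30 at 2 h (edgeR adjusted p = 0.0699, and 0.0214 with the replicate block) and was downregulated in RNA-seq at 24 h (-1.73 ± 0.11). Pomgnt2, a glycosyltransferase gene not tested in TT-seq, was at 2.85 and 3.42 CPM in DMSO and at 0 and 0.0912 CPM at 24 h of RNA-seq.

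The TT-seq calls at 2 h were compared with RNA-seq, which used other libraries. Of the 131 downregulated genes 121 were tested at 24 h of RNA-seq, and 85 of these (70.2%) were downregulated, 0 upregulated and 120 below 0, with a median of -1.14. At 48 and 72 h 81 and 77 of the 121 were downregulated. Of the 18 upregulated genes 14 were tested at 24 h, of which 8 were upregulated, 0 downregulated and 0 below 0, with a median of 1.25. Of 690 tested genes without a call at 2 h, 33 (4.78%) were downregulated and 14 upregulated at 24 h. Among all genes 3.41% were downregulated and 2.32% upregulated at 24 h, and 7.71% and 12% were downregulated at 48 and 72 h. Before RA 88 of 122 genes lowered at 2 h were downregulated (72.1%), and with RA 53 of 122 (43.4%) were downregulated and 1 upregulated, beside 3.66% and 7.36% of all genes downregulated.

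Kdelc1, a glycosyltransferase gene of the endoplasmic reticulum, and Bivm were both downregulated at each RNA-seq time. Kdelc1 was at 30.7 and 34.4 CPM in DMSO and at 5.33 and 5.66 CPM at 24 h, -2.57 ± 0.13, and Bivm at 36.2 and 35.9 CPM and at 12.4 and 13 CPM, -1.50 ± 0.10. Their groups did not overlap, and the partners differed by -1.04 ± 0.17 (limma adjusted p = 1.2e-05). At 2 h of TT-seq Kdelc1 passed (-1.32 ± 0.27) and Bivm did not (-0.71 ± 0.24, edgeR adjusted p = 0.258), and at 24 h of TT-seq both did. After RA the decreases were called and read -1.36 ± 0.10 for Kdelc1 and -0.88 ± 0.10 for Bivm.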

How the data were processed

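The values used are raw counts of reads per gene, which the authors obtained by STAR alignment (mm10) against GENCODE genes. TT-seq reads were first freed of duplicates, split by strand and counted with htseq-count, and a read in overlapping genes of 1 strand counted for each. RNA-seq libraries were made with a stranded mRNA kit, but the strand column used for their counts is not given in the sources used here. Whether reads of a gene and its antisense neighbour were kept apart there is therefore not known. The ZFP143 peak list of the authors gives fold enrichment, a ratio to input, and the −log10 q value of MACS2, and CTCF peaks of both conditions were pooled by them. Genes with more than 10 counts in 4 of the 8 libraries of a table were fitted in edgeR 4.0.16 (R 4.3.3) with TMM scaling and 4 groups of 2 libraries. TT-seq was tested with the quasi-likelihood test and RNA-seq with glmTreat, and p-values were adjusted after Benjamini and Hochberg over all tested genes. Partner differences were tested with limma 3.58.1 on log2 CPM, over all neighbouring pairs. Values per library are CPM scaled with TMM. Deviations of same-numbered libraries correlated at 0.193 to 0.631 in the 6 pairs of TT-seq groups, so values with a replicate block are given there, and at -0.0419 to 0.0621 in the RNA-seq time course and -0.0986 to 0.125 in the RA experiment. The labels do not say what a number shares. With 2 libraries per group p-values rest on the spread between these replicates.

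Symbols, starts and gene types come from a GENCODE vM21 annotation of the same build, in which 55141 of the 55401 genes were found. Genes were named by rule: pairs with both genes lower, the greatest partner differences, pairs called in opposite directions, the strongest peaks, pairs lower at each RNA-seq time, examples of the study, extremes of each list, peaks with 3 genes or more and pairs with several peaks. The peaks and lists were chosen with earlier results of these data known. Alternatives were DESeq2 1.42.0, other scalings, no count filter, a replicate block, each library left out, and other distances, gene types and transcripts. The statistics were tested on simulated data. 4C, Hi-C and ATAC-seq were not analysed here. The results of 1 pair that the naming rule takes are not reported here.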

Additional observations from a re-analysis of the deposited data

How the results depend on the processing

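Of 144 values under alternatives, for 12 results, 118 stayed within 1.5 times the value given and 26 did not. With a replicate block the share of shared promoter genes downregulated in TT-seq was 20.7% at 2 h (13.1% without it) and 23.6% at 6 h (15%), beside 3.7% (2.43%) and 5.35% (2.83%) of all genes, pairs with both genes down at 2 h were 4.83% (2.3%) and pairs whose partners differ at 2 h were 23.7% (14%), and no other of the 12 results moved by over 1.5 times with it. Upregulated shared promoter genes went from 18 to 31 at 2 h, from 16 to 31 at 6 h and from 19 to 37 at 24 h, and all upregulated genes from 30 to 87, from 71 to 359 and from 361 to 1009. Without each library in turn the shares were 3.21% to 8.93% for genes down at 2 h of TT-seq, 3.01% to 9.33% at 6 h and 9.23% to 11.4% at 24 h, 0% to 1.15% for pairs with both genes down at 2 h and 3.68% to 7.36% for pairs that differ at 2 h. A group of 1 library was then taken to vary like the others. Without a count filter both genes were down at 2 h in 4.33% of pairs. With library size alone as scaling the shared promoter genes downregulated were 14.2% at 72 h of RNA-seq (21.9%) and 8.9% after RA (14.6%), and the median of all genes at 24 h of RNA-seq moved by 0.132 on the log2 scale. The shares of all genes downregulated with this scaling are not given here, so these values lack their background. The cause of these moves was not tested. Of 56 calls of named genes at 2 h of TT-seq 16 held in all 4 fits without a library, and of 44 at 24 h of RNA-seq 37 did. With DESeq2 the shares of downregulated genes were 15.3% at 2 h of TT-seq and 11.2% at 24 h of RNA-seq, beside 2.81% and 2.41% of all genes.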
